A study of Mus musculus with 2 samples.

Results

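miR-193, miR-193b and miR-365 are 3 mature microRNAs (miRNAs) that come from paired hairpins on mouse chromosomes 11 and 16. They were chosen by exact name, mmu-miR-193, mmu-miR-193b and mmu-miR-365, among the 1023 mouse miRNAs on the array. The rule itself uses no measured value, but the members were chosen with earlier results of these data known. All 3 were present, with 2 probes each, and all 3 were detected on both arrays, as were 175 mouse miRNAs in all. Total RNA came from the quadriceps muscle of female animals of 15 to 16 weeks, 1 sample with the genotype NF90-NF45 double transgenic (dbTg) and 1 wild-type (WT) sample. NF90 pairs with NF45 in a complex that binds double-stranded RNA, including primary miRNA transcripts, and is known to slow their cleavage by the Microprocessor, the enzyme complex that frees the hairpins. The question is how muscle miRNA levels differ in mice with transgenes for the 2 proteins. With 1 array per genotype no test was possible, and every difference is between 2 RNA samples. The promoter of the transgenes, the number of lines and whether RNA was pooled from several mice are not given in the sources used here.

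Each miRNA is cut from a hairpin in a longer transcript, and the mature strand then guides repression of mRNAs that pair with its seed, bases 2 to 8. The locus on chromosome 16 carries miR-193b and miR-365. In mice this pair was described as induced during brown fat differentiation and as able to favour brown fat genes over muscle genes in cultured precursor cells, although mice lacking the pair were later reported to form brown fat. The locus on chromosome 11 carries miR-193, now called miR-193a, and another copy of miR-365. In human cells miR-193a and miR-193b are known to repress KIT and MCL1, and miR-365 is known to repress cyclin D1 and interleukin 6.

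The mature sequences from RefSeq (GRCm38.p6) are shown because the shared seed and the few differing bases decide what the array can tell apart. The seed is in capitals.
miR-193a-3p, chr11:79712009-79712030, plus strand: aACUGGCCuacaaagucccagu
miR-193b-3p, chr16:13449570-13449591, plus strand: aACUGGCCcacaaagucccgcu
miR-365-3p, chr11:79726467-79726488 and chr16:13453895-13453916, plus strand: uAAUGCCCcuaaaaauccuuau
miR-193a-3p and miR-193b-3p had the same seed and were identical at 19 of 22 bases. Their 3 differences were U9C, A20G and G21C, with miR-193a-3p as the first base and positions counted from 1 at the 5′ end. No other annotated mouse miRNA shared this seed among the 1679 mature names in the RefSeq table, and none shared the seed of miR-365-3p. The miR-365-3p sequence was identical at both loci, so the array cannot assign its signal to chromosome 11 or 16.

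The 4 hairpins from RefSeq (GRCm38.p6, plus strand) show which arm of each was measured, in capitals.
Mir193a, chr11:79711969-79712034: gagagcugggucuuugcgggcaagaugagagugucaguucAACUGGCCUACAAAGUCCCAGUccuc
Mir365-2, chr11:79726400-79726511: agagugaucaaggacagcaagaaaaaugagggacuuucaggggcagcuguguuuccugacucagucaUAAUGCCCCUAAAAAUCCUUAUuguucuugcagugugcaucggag
Mir193b, chr16:13449523-13449601: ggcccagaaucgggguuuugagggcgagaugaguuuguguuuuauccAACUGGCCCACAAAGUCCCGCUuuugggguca
Mir365-1, chr16:13453840-13453926: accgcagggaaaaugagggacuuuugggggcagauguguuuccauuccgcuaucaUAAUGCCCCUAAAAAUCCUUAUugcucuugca
In all 4 the measured strand is the arm nearer the 3′ end. The hairpins lie 14365 bases apart on chromosome 11 and 4238 bases apart on chromosome 16. In the RefSeq annotation both chromosome 16 hairpins lie within the long noncoding RNA genes Gm32817 and Gm53058. The chromosome 11 hairpins overlap no other annotated gene, and each is the other's neighbour on 1 side. The other arms differ more than the measured ones, by 5 bases between miR-193a-5p and miR-193b-5p and by 3 between the miR-365 copies.

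Each probe is a short DNA complement of the 3′ end of its miRNA. The probes of miR-193 and miR-193b are printed with the bases that differ between them in capitals, since these are what separates the readings.
miR-193 probe 1: aCTgggactttgtAgg
miR-193b probe 1: aGCgggactttgtGgg
miR-193 probe 2: aCTgggactttgtAggc
miR-193b probe 2: aGCgggactttgtGggc
miR-365 probe 1: ataaggatttttaggggcatt
miR-365 probe 2: ataaggatttttaggggcatta
All 3 differences between the mature forms fall within the paired stretch, which is 16 bases for probe 1 and 17 for probe 2. For each of these 4 probes the nearest probe of any other miRNA on the array was that of its partner, at 3 mismatches. The miR-365 probes pair with 21 and all 22 bases of miR-365, and their nearest neighbour had 6 mismatches over 16 bases. How much of a signal came from binding of the partner miRNA was not tested.

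The arrays held 43200 miRNA spots each, of which 17.7% were well above background on the dbTg array and 14.9% on the WT array. Signals were generally brighter on the dbTg array. Before taking log2, signals were therefore scaled to the 75th percentile over the probes detected on both arrays, 1220 for dbTg and 882 for WT. Relative to this scaling the median log2 ratio of the 175 miRNAs, dbTg over WT, was 0.0031. The muscle miRNA miR-1, with a mean signal of 113081 on the dbTg array and 149074 on the WT array, and miR-133a, at 32295 and 48683, were bright on both arrays. Errors are spot standard errors (spot SE) from repeated spots of a probe on an array and hold no variation between animals.

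All 3 miRNAs were lower in dbTg quadriceps. miR-193 was 3.14-fold lower, miR-365 2.65-fold lower and miR-193b 2.37-fold lower. All 3 therefore passed the size of 2-fold used for counting, which 10.3% of the 175 miRNAs did in this direction (18 miRNAs) and 11.4% in the other (20 miRNAs). Every probe also gave its difference without any scaling: in the deposited signals, each dbTg spot of these 6 probes was dimmer than each WT spot of the same probe. The share of all probes so separated in the deposited signals is not given here. After scaling the 6 probes again had no overlap, and 33.4% of the 314 mouse probes detected on both arrays had all dbTg spots below all WT spots. Fewer cells that make these miRNAs and less miRNA per cell cannot be told apart in whole muscle.

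**Figure D1:**
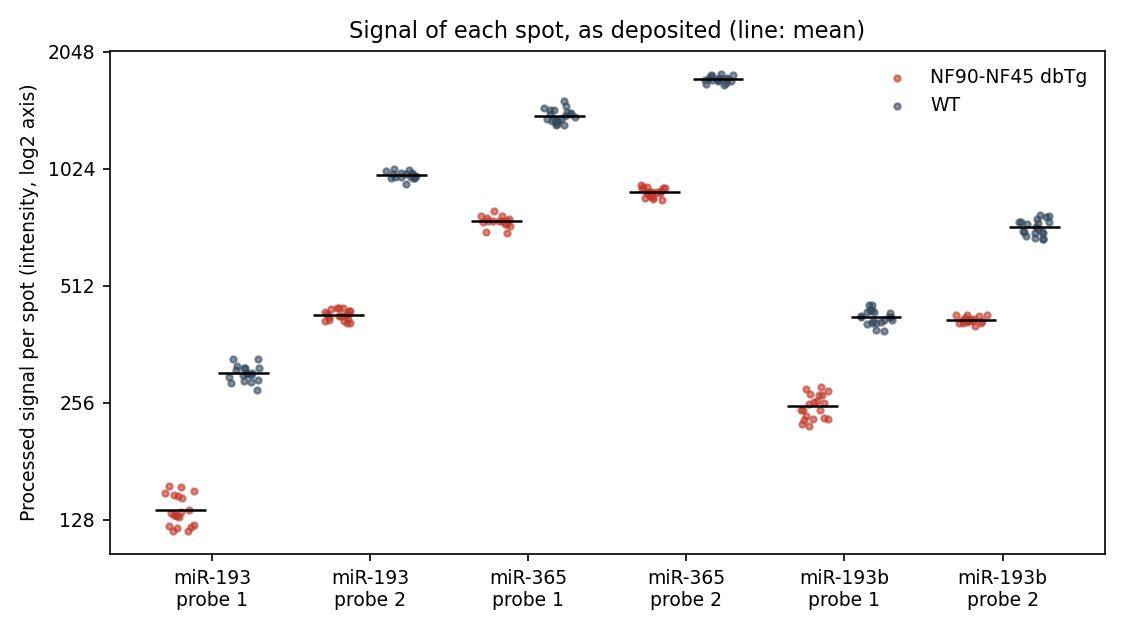
Processed signal of each spot used (intensity, log2 axis) for the 2 probes of miR-193, miR-365 and miR-193b, with dbTg in red and WT in dark blue, and lines at the means. In all 6 probes the dbTg spots lie wholly below the WT spots, before any scaling between arrays.

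miR-193, from chromosome 11, had the lowest ratio of the 3. Its probe 1 gave a lowest, median and highest spot of 119, 132 and 157 on the dbTg array, against 277, 305 and 331 on the WT array. Its probe 2 gave 411, 430 and 449 on the dbTg array, against 937, 985 and 1024 on the WT array. The highest dbTg spot of either probe was well under the lowest WT spot of that probe. The scaled log2 ratios were -1.64 and -1.66, which average to -1.65 (spot SE 0.018). This was the fifth lowest ratio of the 175, after miR-29c*, miR-486*, miR-3107* and miR-434-3p. The dbTg signals of miR-486*, miR-3107* and miR-434-3p, 36.6 to 47.7, were near the lowest detected signal of that array, 32.3. That of miR-29c* was higher, at 71.2.

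miR-365, which both loci encode, had a ratio between those of miR-193 and miR-193b. Its probe 1 gave a lowest, median and highest spot of 700, 751 and 799 on the dbTg array, against 1326, 1393 and 1532 on the WT array. Its probe 2 gave 852, 891 and 928 on the dbTg array, against 1679, 1740 and 1800 on the WT array. Here too the spots of the genotypes were apart in both probes. The log2 ratios of -1.37 and -1.44 average to -1.40 (spot SE 0.010), at rank 11 from the lowest.

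miR-193b, from chromosome 16, had the smallest difference of the 3. Its probe 1 gave a lowest, median and highest spot of 223, 250.2 and 281 on the dbTg array, against 391, 426 and 457 on the WT array. Its probe 2 gave 404, 417 and 431 on the dbTg array, against 675, 720.4 and 777 on the WT array. The gap between the arrays was narrower than for miR-193 but spots did not overlap. The log2 ratios of -1.23 and -1.26 average to -1.24 (spot SE 0.016), at rank 12.

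**Figure D2:**
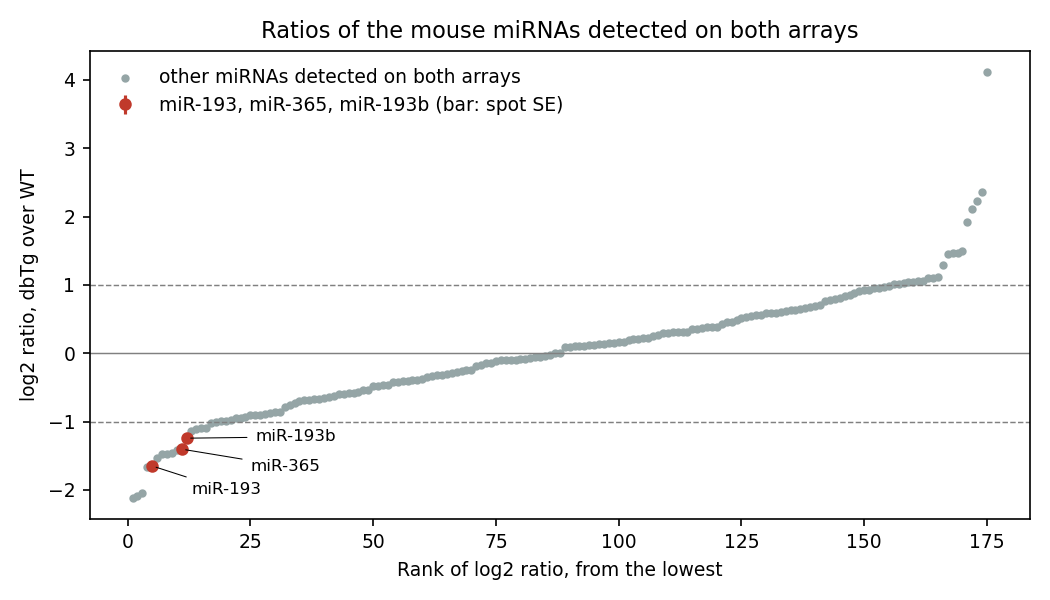
The log2 ratio (dbTg over WT) of the 175 mouse miRNAs detected on both arrays, ordered from the lowest, with dashed lines at 2-fold. miR-193, miR-365 and miR-193b (red, with spot SE) stand at ranks 5, 11 and 12, at -1.65, -1.40 and -1.24.

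The readings rest on spots that varied little. Of 120 spots for these probes on each array, 9 were marked as outliers on the dbTg array and 9 on the WT array and were left out. All 111 used on each array were well above background. The coefficient of variation between spots of a probe ran from 1.84% to 9.16%, and both extremes were on the dbTg array. The 2 probes of a miRNA differed by at most 0.064 in log2 ratio. Spots from the upper or the lower rows of the array alone, a split chosen after seeing the data, gave -1.64 and -1.66 for miR-193, -1.41 and -1.39 for miR-365, and -1.22 and -1.26 for miR-193b.

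The 3 ratios kept 1 order, with miR-365 between the miR-193 forms. miR-193 was below miR-193b by 0.41 on the log2 scale (spot SE 0.024) and below miR-365 by 0.25 (spot SE 0.021), and miR-365 was below miR-193b by 0.16 (spot SE 0.019). Division of an array by 1 factor cannot alter these gaps. In each pair both probes of 1 miRNA lay below both probes of the other, and the gaps were larger than their spot SEs. Whether they exceed the variation between mice cannot be told from 1 array per genotype. Under 16 other ways of processing the order stayed the same. The ways that only rescaled an array or only filtered dim probes could not have changed it. Those gaps ranged from 0.30 to 0.42, from 0.075 to 0.27 and from 0.13 to 0.22, with the narrowest gap between miR-193 and miR-365 under normexp background correction.

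**Figure D3:**
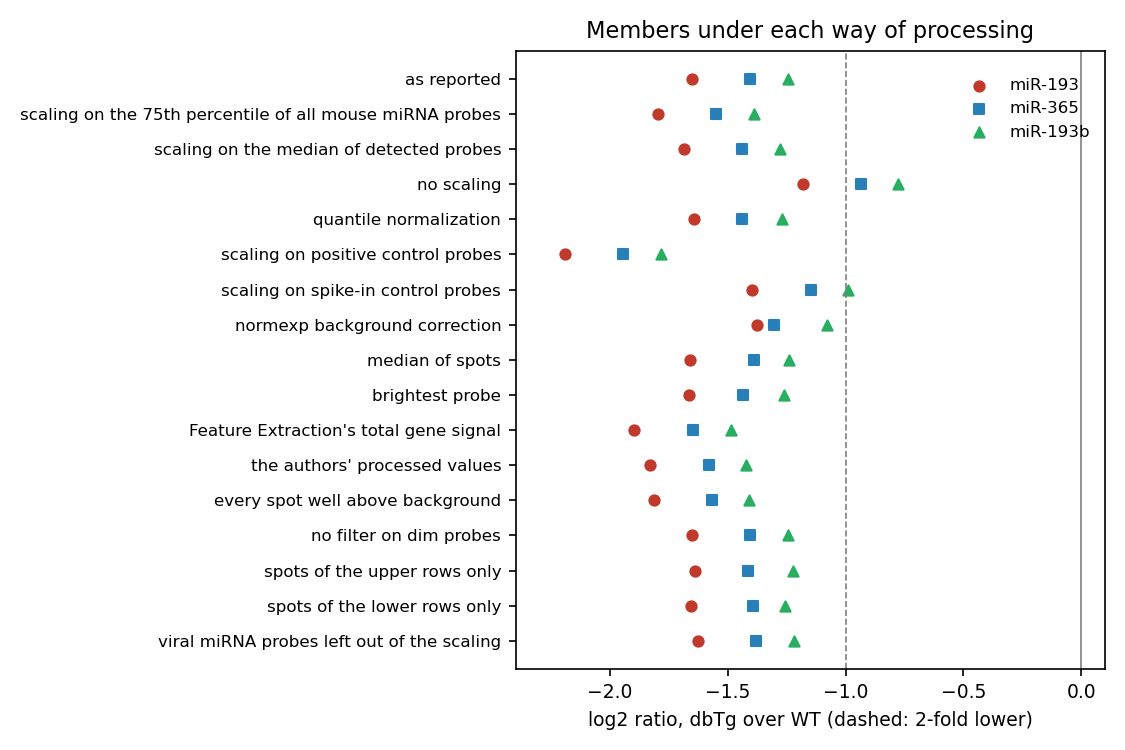
The log2 ratio (dbTg over WT) of miR-193 (circles), miR-365 (squares) and miR-193b (triangles) as reported and under 16 other ways of processing, with a dashed line at 2-fold lower. All points lie below 0 and in the same order in each row, and without scaling the values of miR-365 and miR-193b are -0.94 and -0.78.

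Scaling set how large the differences were. Without it miR-193 was still past 2-fold, at -1.18, while miR-365 and miR-193b fell short, at -0.94 and -0.78. With scaling on spike-in control probes, taken to be those whose names begin with dmr, miR-193b was at -0.99. The median of all 175 miRNAs moved with these scalings, to 0.47 and 0.26. Positive control probes gave the lowest values, -2.19 for miR-193, -1.94 for miR-365 and -1.78 for miR-193b, with the median of all miRNAs at -0.54. Set against that median in each case, the 3 miRNAs ranged from -1.74 to -1.18, from -1.50 to -1.10 and from -1.33 to -0.88, the last of each under normexp background correction.

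In the authors' deposited table, which holds linear values of unstated scaling, miR-193 had 1.38 for dbTg and 4.91 for WT. The authors' deposited table gave miR-365 as 3.999 for dbTg and 11.96 for WT, and miR-193b as 1.63 and 4.37. The log2 ratios computed from the authors' deposited table were -1.83, -1.58 and -1.42, in the same order as above. The medians of the authors' deposited table were 0.00065 for dbTg and 0.0013 for WT, where most miRNAs sit at the lowest value.

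The other arms of the 4 hairpins were at or near background. The array held 10 probes for them. miR-193*, the arm nearer the 5′ end of the Mir193a hairpin, was detected by 1 of its 4 probes on the WT array and by none on the dbTg array. That probe gave a lowest, median and highest spot of 11.6, 16.8 and 23.8 on the dbTg array, against 33.0, 41.9 and 52.7 on the WT array, where 9 of 10 spots were well above background. The dbTg value is only a bound, since the lowest detected signal of that array was 32.3. Against this bound miR-193* was at least 1.83-fold lower in dbTg, in the direction of miR-193 from the same hairpin. The bound was 1.32-fold without scaling and reached 2.66-fold with scaling on positive control probes. The authors' deposited table gives miR-193* as 0.133 for WT and places it at the lowest value of its column for dbTg. miR-193b*, miR-365-1* and miR-365-2* did not stand well above background on the dbTg or the WT array, with probe means from -5.55 to 3.15, so they give no direction, and the arms that could tell the miR-365 copies apart could not be read.

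The ratio of miR-365, 1 value for both of its copies, differed by 0.25 from that of miR-193 and by 0.16 from that of miR-193b, so neither is a gap measured within a locus. The other 59 pairs of detected miRNAs whose probes map within 20 kb of each other, but over 200 bases apart, had a median absolute difference of 0.40 (quartiles 0.19 and 0.66), where the median over all pairs of detected miRNAs was 0.81. These positions are those of the files, on mm9. Pairs share members and near-identical probes, and a pair with several loci was counted once, at its closest loci, so these figures describe this array only. The highest, 5.06, was that of miR-206 with miR-133b.

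The detected miRNAs closest in log2 ratio to the middle value of the 3, that of miR-365, were miR-185, miR-29c, miR-378, miR-3107 and miR-1-1*. The likeness rests on 1 ratio between 2 arrays. Their log2 ratios were -1.42, -1.47, -1.47, -1.47 and -1.54. miR-378 is encoded within Ppargc1b, which makes the mitochondrial coactivator PGC-1β, miR-29c restrains collagen genes, and miR-1-1* is the other arm of a muscle miR-1 hairpin.

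miRNAs with a known part in brown or thermogenic fat were listed to place the chromosome 16 pair among them. Of 13 that are known to favour such fat, 7 were detected on both arrays. All 7 had ratios below 0, as had 86 of the 175, with a median of -0.89, but without scaling miR-30b, miR-26a and miR-26b came to 0.13, 0.22 and 0.42. At least 2-fold lower were 2 of the 7, miR-378 at -1.47 and miR-196a at -1.01, beside 10.3% of all 175, and none was at least 2-fold higher. This count depends on the scaling: miR-196a came to -0.54 without scaling and -0.75 on spike-in probes, which left miR-378 alone, while on positive control probes 4 of the 7 passed, miR-378* and miR-30c too. Of all 175, 8 were at least 2-fold lower without scaling, 11 on spike-in probes and 53 on positive control probes. miR-30c was at -0.9996, just short of that size, miR-378* at -0.89, miR-30b at -0.33, miR-26a at -0.25 and miR-26b at -0.051. miR-455 and miR-203 were detected on the dbTg array only, as were 36 mouse miRNAs in all, beside 5 on the WT array only. Detection was called before scaling, and signals were generally brighter on the dbTg array. miR-455*, miR-32, miR-182 and miR-328 were detected on neither, as were 807 in all. miR-196a is known to promote brown-like cells in white fat of mice, and miR-455 to promote brown fat differentiation.

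The 8 miRNAs known to oppose brown or thermogenic fat were all detected and went both ways, with a median of 0.13. The p53 target miR-34a was at 2.10 and miR-27a at 1.09, both at least 2-fold higher, beside 11.4% of all 175. On positive control probes miR-27a came to 0.55 and only miR-34a passed, while miR-155 passed too on spike-in probes and without scaling, at 1.42 in the last. Of all 175, 5 were at least 2-fold higher on positive control probes, 34 on spike-in probes and 49 without scaling. miR-133a, which represses Prdm16, was at -1.14, the 1 member at least 2-fold lower, beside 10.3% of all 175. It came to -0.67 without scaling and -0.89 on spike-in probes, which left none, while on positive control probes miR-133b passed too, at -1.48. On positive control probes 53 of all 175 were at least 2-fold lower. miR-155 was at 0.95, miR-106b at 0.16, miR-27b at 0.097, miR-93 at -0.14 and miR-133b at -0.94. With scaling on positive control probes miR-27b and miR-106b came to -0.44 and -0.38, and without scaling miR-93 came to 0.33, so these 3 and the median of the list have no settled sign. The array measures miRNAs only, and no marker of fat cells was available among them.

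**Figure D4:**
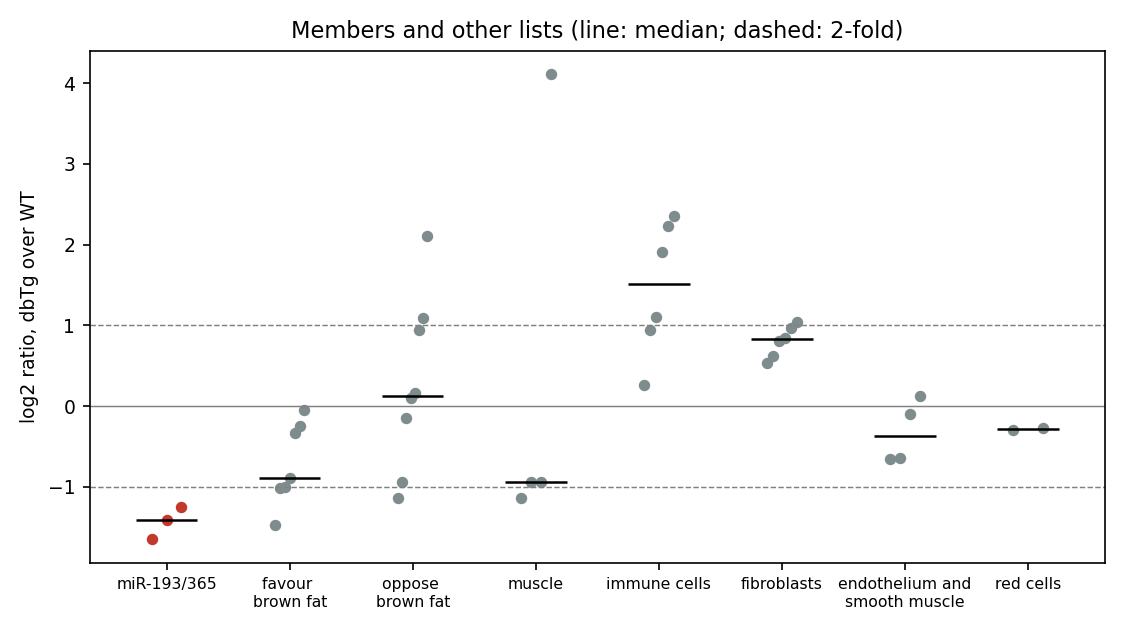
Log2 ratio (dbTg over WT) of the 3 miRNAs (red) and of other lists of miRNAs detected on both arrays (grey), with lines at the medians and dashed lines at 2-fold. The 3 miRNAs lie from -1.65 to -1.24, the list favouring brown fat from -1.47 to -0.051, and the immune list from 0.26 to 2.36.

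Markers of cell types moved between the samples as well. In the muscle list, the log2 ratios were -0.93 for miR-1, -1.14 for miR-133a, -0.94 for miR-133b and 4.11 for miR-206, a miRNA of regenerating fibres. In the same order these came to -0.47, -0.67, -0.47 and 4.58 without scaling. On positive control probes they came to -1.47, -1.68, -1.48 and 3.57, so the signs held but the sizes moved. miR-499 was detected on the dbTg array only, as were 36 mouse miRNAs in all, and miR-208b on neither. Of 7 immune-cell miRNAs 6 were detected on both arrays, all above 0, as were 89 of the 175, and 4 at least 2-fold higher, beside 11.4% of all 175. Those 4 became 3 on positive control probes, with miR-223 at 0.57, and 5 without scaling or on spike-in probes, with miR-155 added. Of all 175, 5 were at least 2-fold higher on positive control probes, 49 without scaling and 34 on spike-in probes. The other immune-cell miRNA was detected on the dbTg array only. The summed scaled signal of the 6 immune-cell miRNAs detected on both arrays was 2.60 in dbTg and 0.809 in WT. The lowest was miR-150 at 0.26, or -0.28 when scaled on positive control probes, and the highest miR-146a at 2.36. All 6 fibroblast miRNAs on the array were above 0, as were 89 of the 175. The highest was miR-214 at 1.04, the only 1 at least 2-fold higher, beside 11.4% of all 175. Without scaling 6 passed that size, on spike-in probes 4 and on positive control probes 0. miR-140 was lowest at 0.54, or 0.0011 with scaling on positive control probes. The 6 fibroblast miRNAs summed to 12.4 in dbTg and 6.89 in WT, mostly from miR-21, so the sums are not amounts of cells. The part of these shifts in the ratios of miR-193, miR-193b and miR-365 was not tested. The 4 vessel and smooth muscle miRNAs ranged from -0.65 for miR-145 to 0.13 for miR-126-3p. They summed to 6.37 in dbTg and 6.40 in WT, mostly from miR-126-3p, and such sums depend on the scaling. On positive control probes miR-126-3p came to -0.41, and without scaling miR-126-5p, at -0.095 as reported, came to 0.37. The red cell miRNAs miR-451 and miR-144 were at -0.29 and -0.27, or 0.18 and 0.20 without scaling. Of 7 miRNAs of liver and epithelium, miR-192 alone was detected on both arrays, at 0.92. On the dbTg array only were 3 more, beside 36 of all mouse miRNAs, and the other 3 were on neither.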

How the data were processed

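Cy3-labelled total RNA of 1 dbTg and 1 WT sample was hybridised to single-colour Agilent miRNA arrays. For each array the authors deposited the spot intensities from Feature Extraction 10.7.3.1, background-subtracted and spatially detrended but not scaled between arrays, per the file headers. They also deposited a table of processed intensities, equal for the members to the total gene signal divided by 154 (dbTg) or 74.3 (WT). No source used here explains these constants.

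Outlier and control spots were left out. No miRNA spot was saturated. Spots of a probe were averaged, and a probe was called detected where a share of 0.5 or more of the spots lay well above background. A miRNA's log2 ratio averages the probes that both arrays detected. Ratios are in log2 of scaled intensity, computed from the deposited values, unless another setting is named. Spot and mean signals are intensities as deposited, and summed signals are linear scaled intensities. A dim probe was bounded by the lowest detected signal. With 1 array per genotype no test was run, and the number of arrays limits the precision. Python 3.11.15 and limma 3.58.1 (normexp, offset 50) were used, and the scripts were tested on simulated data. Named miRNAs are the members, their other arms, seed partners, the 5 nearest ratios, detected members of the brown fat and muscle lists, and the extremes of other lists. Named outside this rule, after their values were seen, were miR-29c*, miR-486*, miR-3107* and miR-434-3p, the members of those lists not detected on both arrays, and miR-223, miR-155 and miR-126-5p, whose call or sign moved with the scaling. The list names miR-208a, miR-486 and miR-199b matched none on the array by exact name. miR-486* and miR-3107, at -2.10 and -1.47, were not counted in the muscle list. The members and lists were chosen with earlier results of these data known.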

Additional observations from a re-analysis of the deposited data

How the results depend on the processing

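miR-193 stayed at least 2-fold lower in all 18 alternatives (-2.19 to -1.18), miR-365 in 17 of 18 (-1.94 to -0.94) and miR-193b in 16 of 18 (-1.78 to -0.78), and none changed sign. The exceptions were no scaling, at -0.94 for miR-365 and -0.78 for miR-193b, and scaling on spike-in probes, at -0.99 for miR-193b. Of the 3 miRNAs, 1 was counted without scaling and 1 at a size of 3-fold. The scalings shift all miRNAs alike by construction. For other changes the cause was not tested. Across all miRNAs, counts at least 2-fold lower and higher, 18 and 20 as reported, were 31 and 10 with scaling on all mouse probes, 8 and 49 without scaling, 53 and 5 on positive controls, and 11 and 34 on spike-ins. They were 32 and 10 with the total gene signal, 31 and 11 in the authors' deposited table, and 91 and 118 of 548 without the filter on dim probes. At 1.5-fold they were 44 and 44, and at 3-fold 5 and 5. They were 12 and 7 with normexp correction, and 26 and 7 where every spot had to be well above background. Upper or lower rows only, and scaling without viral probes, were chosen after seeing the data. No paired analysis was possible because each genotype had 1 array, and none could be left out. Signal near background limits the other arms.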
